A study of Mus musculus with 30 samples.

Results

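The mouse genes that encode the nuclear subunits of the mitochondrial respiratory chain and of ATP synthase were followed after amputation of the digit tip. The genes were chosen by name alone, as every gene symbol that begins with Nduf and a subunit letter and number, Uqcr, Sdha to Sdhd, Cox4 to Cox8 with a letter a to c, or Atp5. This gave 82 of the 20321 genes in the tables, of which 37 belong by name to complex I, 4 to complex II, 8 to complex III, 16 to complex IV and 17 to complex V. Counts sufficed to test 76 of these 82 genes and 13793 genes in all, and the 6 genes that could not be tested were all of complex IV. Names are not a perfect guide to membership, since Ndufa4 is now counted with complex IV, Atp5s and Atp5sl are not core parts of the enzyme, and Cox4i1, Cyc1 and Ndufab1 do not match the rule.

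The respiratory chain sits in the inner mitochondrial membrane. Complex I takes electrons from NADH and complex II from succinate, complex III passes them to cytochrome c, and complex IV hands them to oxygen, while complexes I, III and IV pump protons. Complex V, the ATP synthase, makes ATP from the proton gradient. Most subunits are encoded in the nucleus and imported, a few core subunits are encoded in mitochondrial DNA, and several complex IV subunits exist in a broadly expressed form and in a form typical of heart and skeletal muscle or of testis. Regrowing digit tips are known for a blastema of proliferating cells that later forms new bone, under conditions in which oxygen supply and energy use change, so subunit levels over the course of regrowth are a natural readout.

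RNA was measured in 30 adult male C57Bl/6 mice aged 9 to 10 weeks, in the distal phalanx (P3) of the third hindlimb digit after removal of at most a small distal part of that bone. There were 9 collection times from 0 h to 21 d, each with 3 mice except 7 d with 6, and each mouse gave 1 library. The 0 h samples are labelled as amputated digits too, so no group is free of surgery. Dates in the sample titles, which the labels do not tie to surgery, collection or library preparation, put 16 mice in July and August and 14 mice in November to January, which are called here the earlier and the later date set. The times 3 h and 12 h hold earlier mice alone and 21 d holds later mice alone, and the left foot was used in 3 of the later mice at 7 d and the right foot in every other mouse. Titles of 1 mouse at 0 h and 1 mouse at 12 h carry the same animal code and date, and the labels do not say whether this is a shared animal.

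A library held between 3167625 and 16277816 expected counts (median 6103688), of which 18167 to 91682 fell on subunit genes. Earlier libraries held 3167625 to 6776238 counts and later ones 4843416 to 16277816. Later libraries within the earlier range were replicate 3 at 24 h (4843416) and replicates 3, 4 and 6 at 7 d (6046501, 6564295 and 6683398). Replicate 3 at 7 d had the fewest genes with a count (12199). The part of depth in differences between date sets was not tested. As bulk tissue was measured, a lower level can mean fewer cells of a type or less RNA per cell, and these cannot be told apart. Keratinocyte marker genes summed to 25539 to 75768 TPM (transcript levels scaled by length and library size), and bone-forming marker genes to 279 to 10065 TPM, so skin and bone are both present. Markers of striated muscle summed to at most 33.4 TPM in all mice but 1 at 0 h, which had 186 TPM. Among the libraries, replicate 3 at 24 h stands apart in its mean over the nuclear subunit genes. The 4 mice of the later set at 7 d (replicates 3 to 6) do not in that mean, but lie apart from the 2 earlier mice in single subunit genes such as Ndufs3 and in mitochondrially encoded genes. These 5 libraries were singled out after their values were seen, and results that rest on them are given with and without them below.

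Subunit transcripts were abundant and spanned a wide range of levels. Over the 30 mice the 82 genes summed to 13948 ± 1730 TPM (SD, n = 30), of which complex I contributed 34.2% ± 0.97, complex V 30.4% ± 1.24, complex IV 22.1% ± 1.93, complex III 11.3% ± 0.877 and complex II 1.96% ± 0.263. These shares follow the gene names, so they place Ndufa4 in complex I and leave Cox4i1 out of complex IV. The order of the larger shares depends on this. Of the 76 tested genes, 48 had a mean of at least 100 TPM. Cox6c, a small complex IV subunit, had the highest mean of all at 1233 ± 392 TPM (SD, n = 30). In the other complexes the highest means were those of Atp5b, the catalytic beta subunit of ATP synthase (809 ± 85.2 TPM), Uqcrb of complex III (603 ± 136 TPM), Ndufa4, in complex I by name only (463 ± 161 TPM), and Sdha, the flavoprotein of complex II (121 ± 20.4 TPM). At the low end were Atp5s with a mean of 5.06 TPM, Ndufa11 with 12.1 TPM, Sdhc, a membrane anchor of complex II, with 24.3 TPM, and Uqcrfs1, the Rieske iron-sulfur protein of complex III, with 49.0 TPM. Subunits of a complex that assemble in fixed proportion therefore differed many fold in transcript level, and complex II transcripts were the scarcest as a group.

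**Figure D1:**
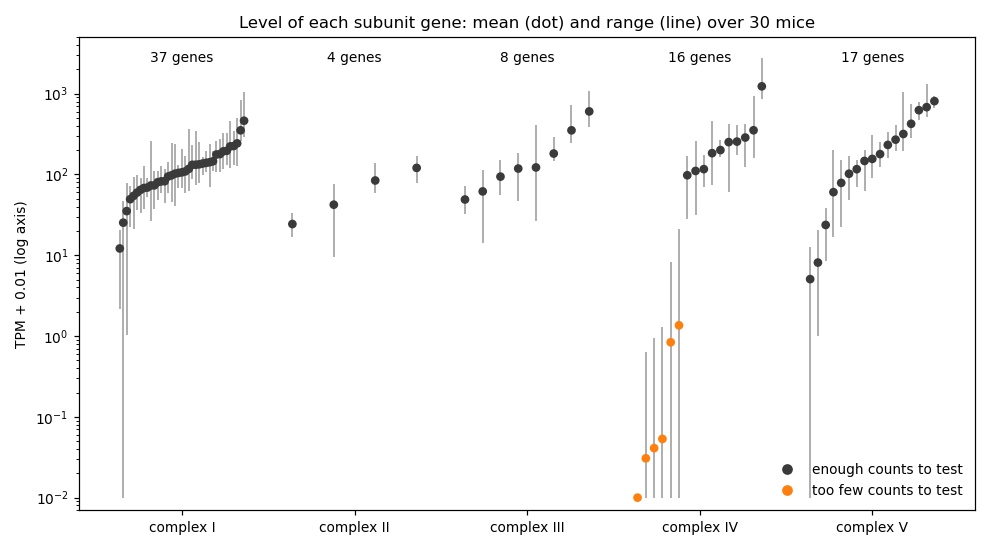
Mean TPM over 30 mice (dots) with the lowest and highest mouse (lines) for each of the 82 subunit genes, sorted within each complex, on a log axis after adding 0.01. The 6 genes with too few counts to test (orange) are all of complex IV and have means of at most 1.35 TPM, while Cox6c reaches 1233 TPM.

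The untested genes were the tissue-restricted isoforms of complex IV, and their broadly expressed partners carried nearly all of the transcript. Cox7b2 had 0 counts in all 30 mice, which allows at most 0.184 to 0.947 CPM (counts scaled to library size) per library at a limit of 3 counts. Cox6a2 and Cox8b, the heart and skeletal muscle forms, and Cox8c each had 2 counts in all, in 1 mouse each. Cox7a1, another muscle form, had 40 counts over 6 mice, 20 of them in 1 mouse at 24 h, and Cox6b2, a testis form, had 41 counts over 12 mice. Against this, Cox6a1 had a median of 249 TPM (range 174 to 410), Cox8a 119 TPM (69.1 to 173), Cox6b1 261 TPM (59.8 to 427), Cox7b 178 TPM (74.8 to 457) and Cox7a2 108 TPM (31.2 to 260). Cox6a1 made up at least 99.8% of the Cox6a pair in every mouse, Cox8a at least 98.3% of the Cox8 set and Cox6b1 at least 97.2% of the Cox6b pair. The muscle and testis forms were at or near 0 in most mice, and the mouse with the most muscle marker transcript, at 0 h, had 0 counts of Cox7a1.

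Other paralog sets were expressed together. Atp5g1, Atp5g2 and Atp5g3 encode the same mature c-ring subunit of ATP synthase with different import signals, and Atp5g3 made up 65.9% to 85.4% of their summed TPM, Atp5g2 a median of 18.9% and Atp5g1 of 4.54%. All annotated 31-base stretches of Atp5g2 also occur in the pseudogene Gm10231, so its level is uncertain. Cox7a2l, which is linked to the assembly of supercomplexes, was the steadier member of its set at 200.4 ± 25.3 TPM, while its share of the Cox7a set ran from 45.9% to 84.8%. Ndufa4l2, a paralog of Ndufa4 that is known as a target of the hypoxia-inducible factor HIF-1, made up a median of 15.8% of that pair (range 6.02% to 40.3%).

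Promoter sequence is shown for a pair of isoforms with opposite levels, Cox8a and Cox8b, and for Cox6a1, another broadly expressed subunit. Sequences are from RefSeq on GRCm38.p6, read 5′ to 3′ on the gene's own strand (minus for all of them), and lie upstream of the annotated start. They run from -170 to -24 for Cox6a1 and from -170 to -1 for Cox8a and Cox8b. They cover chr5:115348982-115349128 for Cox6a1, chr19:7217617-7217786 for Cox8a and chr7:140900447-140900616 for Cox8b, and capitals mark matches to the motifs listed after them.
Cox6a1: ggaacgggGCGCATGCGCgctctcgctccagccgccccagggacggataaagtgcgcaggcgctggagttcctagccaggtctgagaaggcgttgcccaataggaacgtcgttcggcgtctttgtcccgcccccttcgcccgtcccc
Cox8a: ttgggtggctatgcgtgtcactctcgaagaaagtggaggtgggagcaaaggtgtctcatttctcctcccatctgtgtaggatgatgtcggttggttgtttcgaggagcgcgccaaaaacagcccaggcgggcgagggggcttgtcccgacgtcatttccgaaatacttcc
Cox8b: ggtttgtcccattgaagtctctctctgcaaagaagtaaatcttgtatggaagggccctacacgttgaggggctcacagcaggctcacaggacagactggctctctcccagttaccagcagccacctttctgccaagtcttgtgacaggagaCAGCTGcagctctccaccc
In these stretches the CG pair, common in the promoters of widely expressed genes, occurs 17 times in 147 bases for Cox6a1. In 170 bases each it occurs 11 times for Cox8a and 1 time for Cox8b.

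Over the full windows of 250 bases before and 50 bases after the start, 67 of the 82 genes had at least 1 window, 73 windows in all. The median number of CG pairs was 19 in these windows, 19 in the windows of all tested genes and 7 in all 32851 windows, and among the isoforms it was 32 for Cox6a1, 19 for Cox8a, 20 for Cox7a2 and 17 for Cox6b1 against 2 for Cox8b, 7 for Cox7a1 and 10 for Cox6b2. Cox7b, with 5, and its silent partner Cox7b2, with 10, did not follow this order. Exact matches to 5 motifs were searched on both strands. The NRF1 core GCGCATGC, bound by a factor known for nuclear mitochondrial genes, was in 10 of the 73 windows (13.7%) against 4.74% of windows of tested genes and 2.71% of all windows. Those genes were Atp5g2, Atp5k, Atp5l, Cox6a1, Ndufa6, Ndufa8, Ndufa11, Sdhb, Uqcr11 and Uqcrc1. The YY1 motif AAGATGGC was in 11 windows (15.1%, against 3.95% and 2.75%). The ETS motif CCGGAAGT was in 5 windows (6.85%, against 7.02% and 3.89%), among them that of Cox8a. The TATA motif TATAAA was in 8 windows (11%, against 8.07% and 13.6%) and the myogenic E-box CAGCTG in 6 (8.22%, against 15.7% and 16.3%), and both were found for Cox8b.

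Over the 9 time points the complexes stayed close to their 0 h level. The mean log2(CPM + 1) of the tested subunit genes was 5.49 ± 0.14 (SD, n = 3) at 0 h and lay between 5.51 and 5.68 at every later time but 24 h, where it was 5.89 ± 0.47 (SD, n = 3). For complex I the group means lay within 0.15 of 0 h at all times but 24 h, for complex II within 0.21 and for complex IV within 0.25. Complexes III and V were 0.38 and 0.24 above 0 h at 3 h, though the 3 h mice are all of the earlier set, and against the 1 mouse of that set at 0 h the differences were 0.05 and 0.22. Without replicate 3 at 24 h, the other 29 mice ranged from 5.33 to 5.77 in their mean over all tested subunit genes. The 3 h mice (5.61 to 5.77) all lay above the 0 h mice (5.33 to 5.58), while the 0 h range was overlapped by that of every other time. Other tested genes under 700 bases were at 4.15 to 4.28 at 3 h and 3.93 to 4.15 at 0 h. Their mean at 3 h was 0.18 above 0 h, against 0.19 for the subunit genes, so this shift was not particular to subunit genes.

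**Figure D2:**
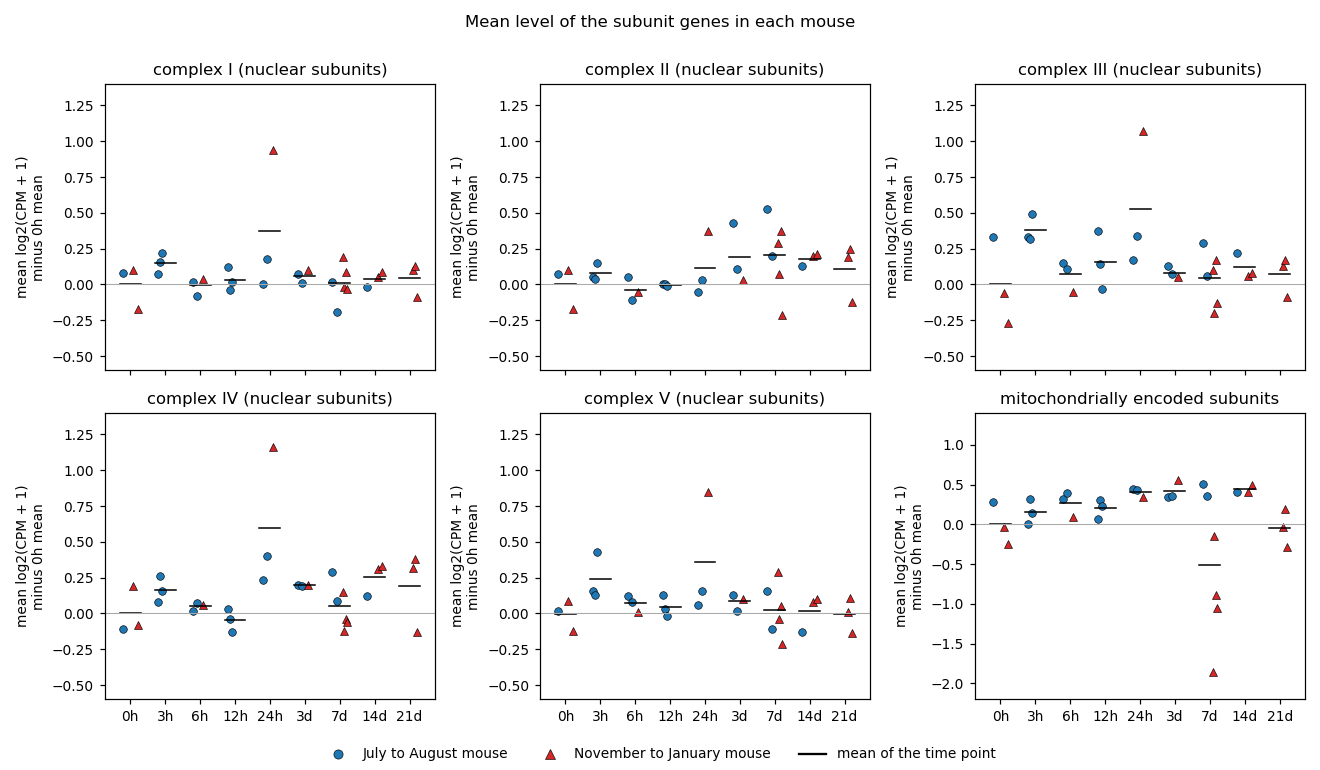
Mean log2(CPM + 1) of the tested nuclear subunit genes of each complex, and of the 13 mitochondrially encoded genes, in each of 30 mice at 9 times, as the difference from the mean of the 0 h mice (black lines are means of each time). In complexes I, III, IV and V the triangle of replicate 3 at 24 h lies above every other mouse, and at 7 d the mitochondrially encoded genes of the 4 later mice lie below the 2 earlier ones.

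By edgeR's quasi-likelihood F-test over all times, 5 of 76 subunit genes (6.58%) changed at an adjusted p under 0.05, against 9.01% of all genes tested. These were Cox5b and Cox7b of complex IV, Ndufb2 and Ndufa2 of complex I, and Ndufa4l2. At an unadjusted p under 0.05 there were 23 (30.3%), against 24.1% of all genes, so the share called by edgeR is below the background and the unadjusted share somewhat above it. The count depended on the fit, with 20 called by DESeq2 (26.3%, against 18.1% of all genes) and 18 of 77 in the later mice alone (23.4%, against 7.87%), but 2 of 77 in the earlier mice alone (2.6%, against 4.96%) and 2 of 76 without the 5 libraries (2.63%, against 13.7%). The fold between the highest and lowest group mean in CPM had a median of 1.75 over the subunit genes (range 1.22 to 3.94), and reached 2-fold in 25% of them against 43.8% of all genes. The time of the highest mean was 24 h for 41 subunit genes (53.9%, against 12.6% of all genes), and without replicate 3 at 24 h for 15 (19.7%, against 12.3%).

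None of 9 subunits taken as examples of the main parts of the complexes was called over time, with folds of 1.24 to 1.68, and this choice leaves out others such as Ndufs3, which was 0.80 above 0 h at 7 d in log2(CPM + 1) over all mice and 1.46 within the later set. Atp5a1 and Atp5b, the alpha and beta subunits that form the catalytic head of ATP synthase, had folds of 1.28 and 1.39 between their highest and lowest group means (edgeR adjusted p = 0.345 and 0.494 over the time course). For Ndufs1 and Ndufv1, which carry electrons in the peripheral arm of complex I, the folds were 1.25 and 1.26 (adjusted p = 0.744 and 0.718). Uqcrfs1 had 1.24 (adjusted p = 0.973) and Uqcrc1, a core protein of complex III, 1.55 (adjusted p = 0.144). Sdha and Sdhb, the catalytic pair of complex II, had 1.30 and 1.53 (adjusted p = 0.205 and 0.361), and Cox5a of complex IV had 1.68 (adjusted p = 0.653). A missed threshold does not show that these genes were constant, since in simulated data the same test found 41% of the 2-fold changes and 92% of the 4-fold ones among 13635 genes.

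**Figure D3:**
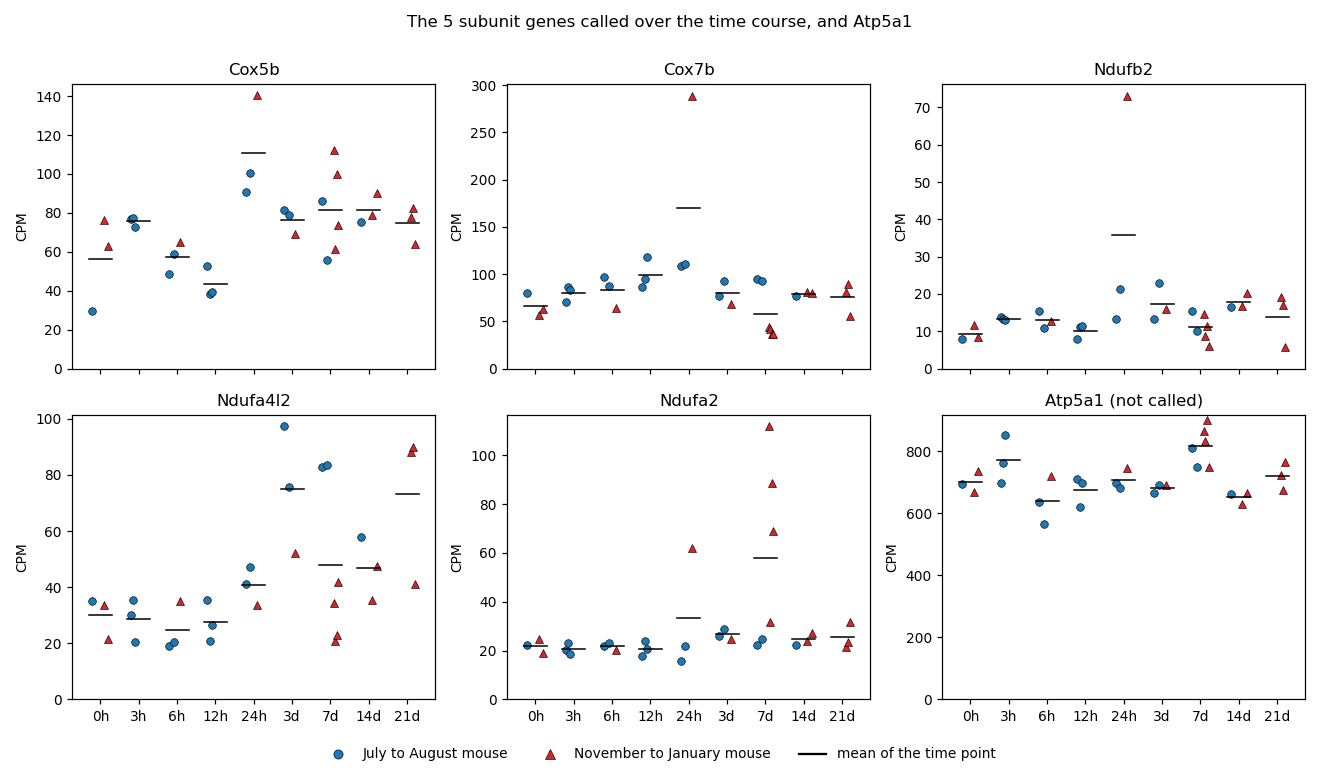
CPM in each of 30 mice at 9 times for the 5 subunit genes called over the time course (adjusted p from 0.022 to 0.0294), with Atp5a1, which was not called, for comparison. Black lines are means of each time, and all axes start at 0.

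Ndufa4l2 (chr10:127514967-127517154, GRCm38, plus strand) had its highest means at 3 d and 21 d. It stood at 21.4, 33.8 and 35.2 CPM at 0 h, stayed between 18.8 and 35.5 CPM in all mice at 3 h, 6 h and 12 h, and was at 33.7, 41.1 and 47.2 CPM at 24 h. At 3 d it was at 52.0, 75.8 and 97.6 CPM, above every mouse at 0 h to 24 h. At 7 d the 2 earlier mice had 82.9 and 83.7 CPM while the 4 later mice had 20.9 to 41.9 CPM, and at 21 d values were 41.0, 88.3 and 90.0 CPM. The adjusted p over the time course was 0.0285, and no single time passed against 0 h (log2 fold change 1.31 ± 0.42 SE at 3 d, adjusted p = 0.273, and 1.28 ± 0.42 SE at 21 d, adjusted p = 0.155). Within the earlier set, log2(CPM + 1) at 3 d was 1.26 above 0 h, and within the later set 0.92. Without the 5 libraries that stand apart the edgeR adjusted p over the time course was 0.000421. These libraries include the 4 later mice at 7 d with low values, so this fit gives no independent support. Ndufa4l2 was called in the earlier mice alone but not in the later mice alone, and in both sets some times hold 1 mouse. It was not called with any 1 of 7 mice left out (adjusted p from 0.0506 to 0.0688). Bone-forming marker genes summed to 662 to 1461 TPM at 0 h, 966 to 2503 TPM at 3 d, 8164 to 9950 TPM at 14 d, where Ndufa4l2 was at 35.4 to 57.7 CPM, and 7108 to 10065 TPM at 21 d. Osteoclast marker genes summed to 73.5 to 132 TPM at 0 h and 684 to 993 TPM at 3 d, and at 7 d to 4517 and 4921 TPM in the earlier mice and 1440 to 2609 TPM in the later mice. The part of these cells in the level of Ndufa4l2 was not tested.

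Cox5b (chr1:36691449-36693681, GRCm38, plus strand), a peripheral complex IV subunit, had its lowest mean at 12 h and its highest at 24 h. All 12 h mice are of the earlier set, and within that set log2(CPM + 1) at 12 h was 0.51 above the 1 mouse at 0 h, against a difference of -0.29 over all mice. It had 29.8, 63.2 and 76.5 CPM at 0 h, 38.2, 39.2 and 52.7 CPM at 12 h, and 90.8, 100.4 and 141 CPM at 24 h, so the 24 h mice lie above all mice of both other times. At 14 d it was at 75.6 to 90.4 CPM, above 2 of the 0 h mice. The adjusted p over the time course was 0.022, and 24 h against 0 h did not pass (log2 fold change 0.96 ± 0.26 SE, adjusted p = 0.118). Over the time course it was called in the earlier mice alone (adjusted p = 0.00363), while without replicate 3 at 24 h the adjusted p was 0.0523, without replicate 2 or 3 at 12 h 0.059 and 0.0635, and in the later mice alone 0.231. Cox5b shares 40.2% of its 31-base stretches with Gm11273, so its level is uncertain.

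The calls of Ndufb2, Cox7b and Ndufa2 rested on few libraries. Ndufb2 (chr6:39592574-39603382, GRCm38), an accessory subunit of the membrane arm of complex I, had at most 11.7 CPM at 0 h and 13.2, 21.3 and 72.9 CPM at 24 h. Its log2 fold change at 24 h of 1.92 (SE 0.45, adjusted p = 0.0445) was the single call among subunit genes in any comparison with 0 h, and without replicate 3 the log2 fold change was 0.89 and not called. Cox7b (chrX:106015700-106022450, GRCm38) had 109, 111 and 289 CPM at 24 h against 56.7 to 79.8 CPM at 0 h (log2 fold change 1.35 ± 0.34 SE, adjusted p = 0.0861), and was at 36.7 to 44.5 CPM in the 4 later mice at 7 d against 92.5 and 95.3 CPM in the 2 earlier ones. Ndufa2, another accessory subunit of complex I, lay between 15.6 and 31.7 CPM in every mouse outside the 5 libraries that stand apart. It was at 62.2 CPM in replicate 3 at 24 h and at 31.9, 68.9, 88.8 and 112 CPM in the 4 later mice at 7 d. Without the 5 libraries the adjusted p over the time course was 0.261 for Ndufb2, 0.132 for Cox7b and 0.472 for Ndufa2.

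Against 0 h, subunit genes were hardly called at any single time. No subunit gene was called by edgeR at 3 h, 6 h, 12 h, 3 d, 7 d, 14 d or 21 d, where 0.254%, 0.189%, 0.167%, 0.551%, 2.34%, 1.61% and 1.94% of all genes were. At an unadjusted p under 0.05 the numbers were 5, 2, 0, 1, 9, 2 and 1 of 76, against 10.9%, 7.24%, 7.67%, 6.66%, 13.3%, 8.91% and 9.22% of all genes. DESeq2 called 0, 0, 0, 0, 2, 0 and 0, and the 2 at 7 d are 2.63%, against 4.32% of all genes. The median log2 fold change of the subunit genes at these times lay between 0.02 and 0.18, against -0.01 to 0.01 over all genes. At 24 h 1 gene was called, Ndufb2 (1.32% of 76, against 0.493% of all genes). Here the fitted change was upward for 69 of 76 subunit genes, with a median of 0.49 against 0.01 over all genes, and 22 (28.9%) had an unadjusted p under 0.05, all higher, against 5.20% of all genes that were higher at this level. All 10 tested genes of complex IV and all 8 of complex III were fitted higher at 24 h, as were 16 of 17 of complex V, 32 of 37 of complex I and 3 of 4 of complex II. At 14 d against 24 h 1 subunit gene fell, the stalk subunit gene Atp5h of ATP synthase (log2 fold change -0.93, SE 0.23, adjusted p = 0.0379), against 1.20% of all genes called, and 65 of 76 were fitted lower, with a median of -0.41. Without replicate 3 at 24 h, 44 were fitted lower with a median of -0.03, and Atp5h was not called (-0.40, SE 0.18, adjusted p = 0.512). For Atp5h the values were 202, 238 and 511 CPM at 24 h and 159, 165 and 174 CPM at 14 d, and 60.8% of its stretches recur in the pseudogene Gm10250.

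The upward shift at 24 h over all subunit genes rested largely on 1 library, with complex IV a partial exception. Replicate 3, the single mouse of the later set at 24 h, had a mean log2(CPM + 1) over subunit genes of 6.42, while the other 24 h mice had 5.55 and 5.71, inside the range of the 0 h to 21 d mice. It was the highest of 30 libraries for 38 of 76 subunit genes, against 8.5% of all genes, and its means were 6.22 for complex I (5.28 and 5.46 in the other mice), 6.47 for complex III (5.57 and 5.75), 7.02 for complex IV (6.09 and 6.26) and 6.60 for complex V (5.81 and 5.91). Complex II differed less, with 5.92 against 5.50 and 5.58. Without this mouse the median log2 fold change at 24 h was 0.13, 46 of 76 genes were fitted higher, 6 had an unadjusted p under 0.05 and none was called. Within the earlier set, the 2 mice at 24 h were 0.07 above the 1 mouse at 0 h in the mean over subunit genes, against 0.97 within the later set. By complex, these earlier-set differences were 0.02 (I), -0.08 (II), -0.07 (III), 0.42 (IV) and 0.09 (V). In complex IV the 2 earlier mice at 24 h (6.09 and 6.26) lay above all 0 h mice (5.75 to 6.06).

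In replicate 3 at 24 h the difference was larger for short than for long transcripts, among subunit genes and other genes. Subunit transcripts are short, with a median annotated length of 786 bases against 3021 for other tested genes, and 43.4% against 2.07% are under 700 bases. Relative to the mean of the other 24 h mice, the median log2(CPM + 1) difference was 0.99 for the 9 subunit genes under 500 bases, 1.066 for the 24 from 500 to under 700, 0.79 for the 15 from 700 to under 1000, 0.51 for the 21 from 1000 to under 2000 and 0.11 for the 7 of 2000 or more. For all other genes in the same classes it was 0.77, 0.78, 0.60, 0.23 and -0.11. The shortest class was thus not the highest, and the difference fell with length from 500 bases on. Over all genes of this library, Spearman's rho between length and the deviation from the median of all mice was -0.29, beyond the range of -0.13 to 0.16 in the other libraries (genes are not independent replicates, and this is a description). The part of transcript length in the level of subunit genes at 24 h was not tested. This library had 4843416 counts in all, and its marker sum was 39182 TPM for keratinocytes against 39305 and 45900 TPM in the other 24 h mice, 183 TPM for macrophages against 187 and 241 TPM, and 270 TPM for neutrophils against 125 and 152 TPM.

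**Figure D4:**
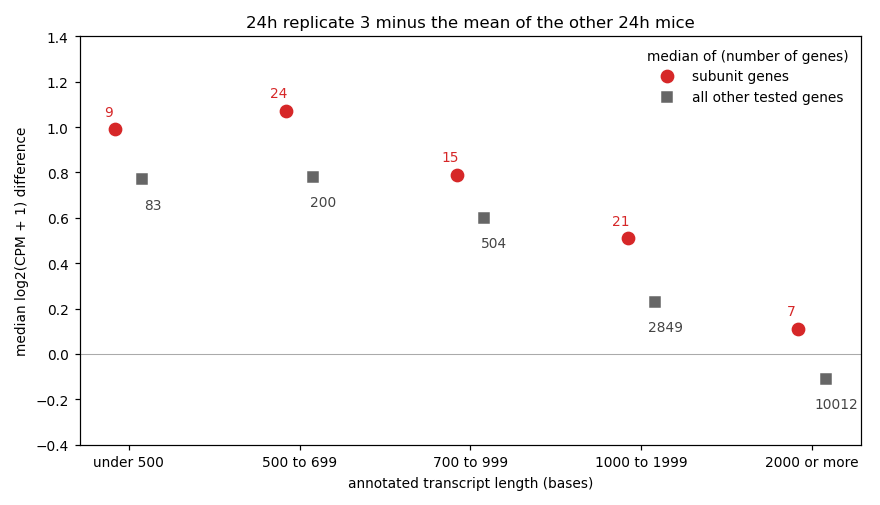
Median difference in log2(CPM + 1) between replicate 3 and the mean of the other 24 h mice, for subunit genes (circles) and all other tested genes (squares) in 5 classes of annotated transcript length, with the number of genes beside each point. Subunit genes go from 0.99 in the shortest class and 1.066 in the next to 0.11 in the longest, and other genes from 0.77 and 0.78 to -0.11.

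The mitochondrially encoded subunits were not higher in replicate 3 at 24 h, and spread most at 7 d. All 13 genes were measured and tested, and their summed TPM was 2.81 ± 0.799 times that of the 82 nuclear genes (SD, n = 30). No gene of the 13 was called over the time course or against 0 h by edgeR (1 with an unadjusted p under 0.05 over the time course, and 1 each at 24 h, 3 d and 7 d). In replicate 3 at 24 h their mean log2(CPM + 1) was 9.59, against 9.67 and 9.70 in the other 24 h mice, and the ratio of mitochondrial to nuclear TPM was 1.44 against 3.15 and 3.51. At 7 d the 2 earlier mice had a mean of 9.60 and 9.76 and a ratio of 3.69 and 3.64. The 4 later mice had means of 7.39, 8.20, 8.35 and 9.10 and ratios of 0.699, 1.30, 1.23 and 2.51, and 7.39 was the lowest of all 30 mice. Nuclear subunit means of these 6 mice at 7 d overlapped, at 5.40 and 5.63 in the earlier mice and 5.40 to 5.69 in the later mice.

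Between the date sets many subunit genes differed. In a fit of time point and date set over all 30 mice, 32 of 76 subunit genes (42.1%) were called, against 24.1% of all genes. In the later set 24 of 76 were higher, against 13.3% of all genes. The 8 of 76 that were lower are a share no greater than the 10.8% of all genes. The 24 higher genes were 14 of complex I, 4 each of complexes IV and V and 2 of complex III, with a median log2 difference of 0.54 (range 0.27 to 1.04). The 8 lower genes were 4 of complex I, 2 of complex III and 1 each of complexes II and IV, with a median of -0.55 (range -0.81 to -0.39). Complexes I, III and IV thus held both higher and lower subunits. Foot also differed, as the 3 left-foot mice are all later mice at 7 d. Without them 26 of 76 subunit genes (34.2%) were called, against 19.8% of all genes. The labels do not describe what else differed between the date sets.

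The lowest p-values among the higher genes were those of 4 complex I subunits, while the largest difference was that of Cox7c of complex IV (1.04 on the log2 scale, SE 0.19, adjusted p = 0.000144). Ndufa8 was higher in the later set by 1.03 on the log2 scale (SE 0.13, adjusted p = 8.5e-07). At 0 h it had 58.0 and 61.9 CPM in later mice against 45.1 in the earlier mouse, at 3 d 79.5 against 37.0 and 37.6, at 7 d 55.4 to 97.3 against 22.3 and 33.9, and at 14 d 65.5 and 67.7 against 37.8. At all 6 times that hold both sets, the later mice were above the earlier mice in Ndufa8. Ndufc2 (0.80 ± 0.12 SE, adjusted p = 1e-05), Ndufb3 (0.92 ± 0.15 SE, adjusted p = 4.73e-05) and Ndufs3 (1.03 ± 0.19 SE, adjusted p = 0.000126) followed. Ndufs3, a core subunit of the peripheral arm, was at 108 to 174 CPM in the later mice at 7 d against 29.0 and 38.6 CPM in the earlier ones, though 45.8% of its stretches recur in the pseudogene Gm12251.

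Lower in the later set were Uqcrc2, a core protein of complex III (log2 difference -0.47, SE 0.10, adjusted p = 0.000673), Cox5a (-0.81, SE 0.19, adjusted p = 0.00162), Ndufv2, which carries an iron-sulfur cluster of complex I (-0.41, SE 0.12, adjusted p = 0.0103), and Ndufa13 (-0.39, SE 0.12, adjusted p = 0.0143). For Uqcrc2 the later mice had 52.8 and 63.4 CPM at 0 h against 101 in the earlier mouse, and 55.8 to 68.0 CPM at 7 d against 92.6 and 115. Cox5a had 9.80 to 18.9 CPM in the later mice at 7 d against 38.1 and 44.5 CPM, while at 14 d the sets were alike at 31.1 and 34.1 against 33.7 CPM. Exons of Uqcrc2 and Ndufa13 overlap those of neighbouring genes, and reads of the overlap cannot be assigned with certainty.

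**Figure D5:**
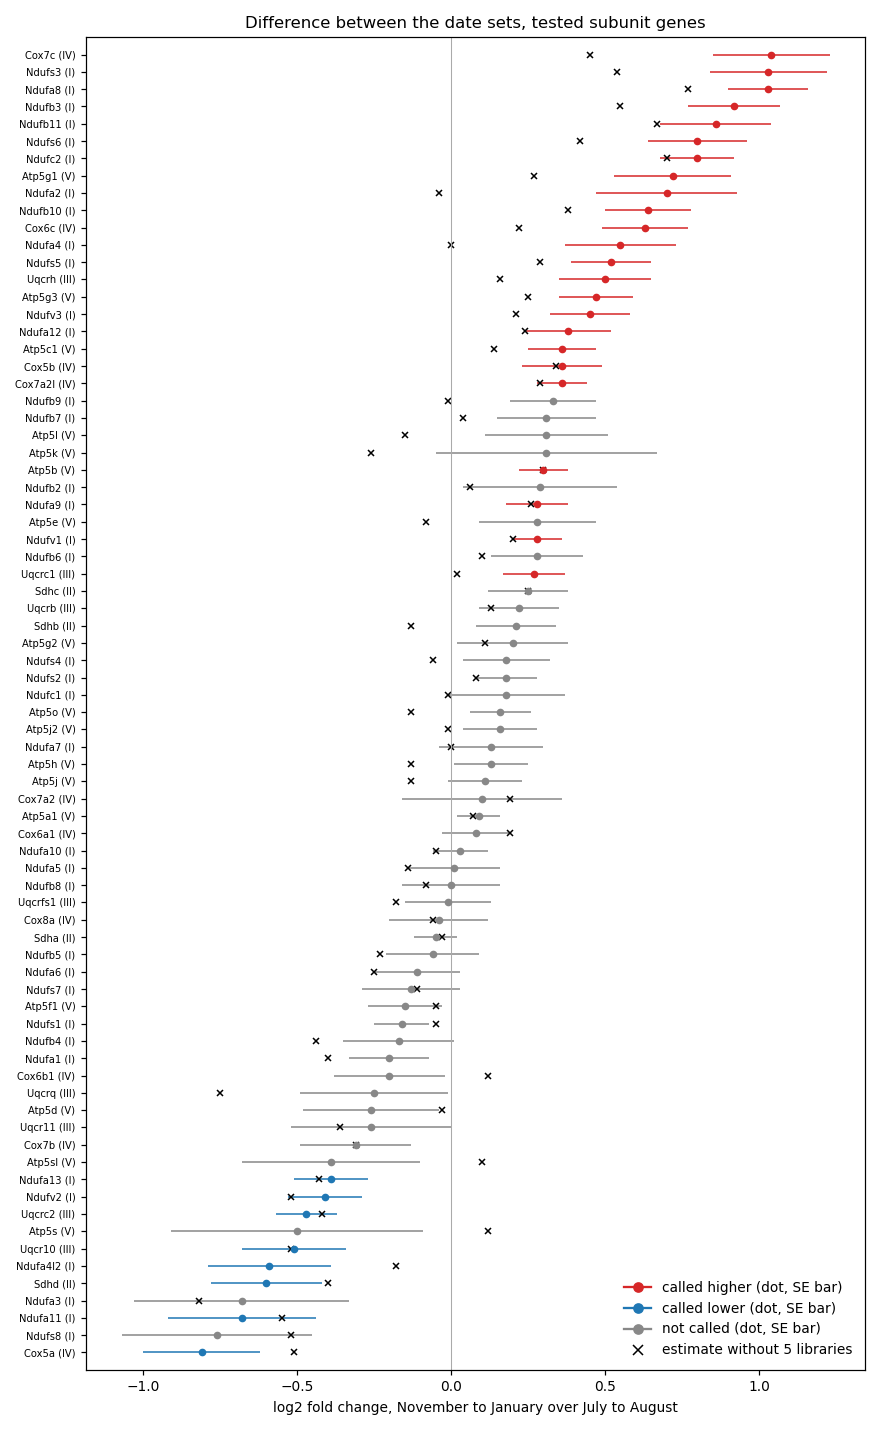
Log2 fold change of the later over the earlier date set for each of 76 tested subunit genes (dots, with SE bars), in a fit with time point as a covariate, coloured by call, and the estimate without the 5 libraries that stand apart (crosses). Complexes are in brackets, and the 24 higher and 8 lower genes include members of the same complex on both sides.

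The difference between date sets was largest at 7 d. Taken as the mean log2(CPM + 1) of the 24 higher genes minus that of the 8 lower genes, which describes the genes chosen and tests nothing, earlier mice ran from 0.27 to 0.88 and later mice from 0.97 to 2.55. At 7 d the values were 0.27 and 0.31 in the earlier mice and 1.97 to 2.55 in the later mice, while at 14 d they were 0.52 in the earlier mouse and at most 1.10 in the later mice. Macrophage marker genes summed to 571 and 673 TPM in the earlier mice at 7 d and 142 to 212 TPM in the later mice, and osteoclast marker genes to 4921 and 4517 TPM against 1440 to 2609 TPM. Over all times, 5 of 7 macrophage markers were lower in the later set (median log2 difference -0.96), and of 8 keratinocyte markers 4 were higher and 1 lower. With the 5 libraries left out, 1 of 7 macrophage markers was lower (median -0.67), and of 8 keratinocyte markers 1 was higher and 1 lower. The part of these cells in the subunit differences was not tested. Without the 5 libraries that stand apart, 11 of 76 subunit genes were called (14.5%, against 11.2% of all genes), all among the 32, and 30 of the 32 had the same sign. The exceptions in sign were Ndufa2 (-0.04) and Ndufa4 (-0.00). Ndufa8 (0.77, adjusted p = 0.000291), Ndufc2 (0.70, adjusted p = 0.000804), Ndufb3, Ndufs3, Uqcrc2, Ndufv2 and Ndufa13 were among the 11, and Cox5a was not (-0.51, adjusted p = 0.125).

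Over the 21 mice of the 6 times that hold both sets, the time course of 6 of 76 subunit genes (7.89%) differed between sets by edgeR's interaction test, against 0.883% of 13587 genes. These were Cox7b (adjusted p = 0.00206), Atp5l (0.0119), Ndufc1 (0.0168), Ndufb8 (0.0228), Ndufs3 (0.0314) and Uqcr11 (0.0334). Replicate 3 at 24 h was the highest of the 30 mice for Cox7b (289 CPM), Atp5l (333 CPM against 55.9 and 68.2 in the other 24 h mice), Ndufc1 (196 against 47.5 and 53.1), Ndufb8 (197 against 59.3 and 78.4) and Uqcr11 (112 against 19.9 and 32.3). Without it no subunit gene was called, and adjusted p ran from 0.077 for Ndufs3 to 0.991 for Atp5l. At 7 d the later mice were the lower ones for Cox7b, for Ndufb8 (42.2 to 47.3 against 68.1 and 75.8 CPM), for Ndufc1 (28.0 to 41.6 against 43.7 and 51.0 CPM) and for Uqcr11 (6.09 to 13.1 against 20.2 and 27.5 CPM). For Ndufs3 the later mice were the higher ones at 7 d. Its log2(CPM + 1) at 7 d minus 0 h was 1.46 within the later set and -0.52 within the earlier set.

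Other genes of the pathway are given by list, and their shares can be read against 9.01% of all genes called over time and 24.1% between date sets. Of 40 tested assembly factors, 0 were called over the time course by edgeR (2 at an unadjusted p under 0.05) and 0 against 0 h at any time, and 9 were higher and 0 lower in the later set (22.5% called, and 7.5% without the 5 libraries, where 11.2% of all genes were). Of 7 nuclear subunits and carriers that the name patterns miss, 0 were called over the time course (2 unadjusted), while Cycs, which is cytochrome c, Cox4i1 and Atpif1 were higher in the later set (42.9%). Without the 5 libraries 1 of these 7 was higher (14.3%). Among 12 regulators of mitochondrial biogenesis, Pprc1, a coactivator that responds to growth signals, changed over the time course (adjusted p = 0.0143), with a log2 fold change of 0.97 (SE 0.23, adjusted p = 0.0626) at 3 h. Tfam, Peo1 and Nrf1 were higher in the later set (25% of the 12), and without the 5 libraries 0 of the 12 were called. Of 13 TCA cycle enzymes, Idh3b changed over the time course (adjusted p = 0.0362) and Dld was higher in the later set (7.69% of the 13). Without the 5 libraries 0 of these enzymes were called between date sets. Among the 13 mitochondrially encoded genes, 6 were lower and 0 higher in the later set, with a median log2 difference of -0.47 over all 13, and mt-Co2 had the lowest p. Without the 5 libraries 2 were lower and 1 higher, with a median of 0.02. In mean log2(CPM + 1) over the 13 genes, every later mouse lay below every earlier mouse at 0 h, 6 h, 24 h and 7 d. Of these times, 0 h and 6 h hold none of the 5 libraries. At 3 d the later mouse (9.81) was above the earlier mice (9.59 and 9.60), and at 14 d the later mice (9.66 and 9.74) were not below the earlier one (9.66).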

How the data were processed

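RNA was sequenced from amputated hindlimb digits of 30 mice by LM-Seq, a ligation-based poly(A) protocol, with 18 PCR cycles and single-end reads of 65 bases. Per the labels and the study's methods, the authors used CASAVA 1.8.2, mapped reads with Bowtie 0.12.8 to Ensembl 75 transcripts (mm10) and deposited expected counts and TPM from RSEM 1.2.3, both per gene and mouse. Expected counts are not normalized, and 78.1% are whole. A table of averages per time was not used. RSEM shares reads among similar genes, and pseudogenes missing from the tables could add to or take from subunit counts: 19 tested genes share at least 20% of their 31-base stretches with another annotated gene.

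Expected counts were rounded and tested with edgeR 4.0.16 (quasi-likelihood with the legacy option, TMM, filterByExpr by time, Benjamini-Hochberg at 0.05 over all 13793 genes kept), in R 4.3.3, all mice in one fit. The filter kept 99.9% of counts. Date sets were tested with time as covariate, and their interaction in 21 mice. Levels between genes are in TPM, and CPM are TMM-normalized. Python 3.11.15 (pandas 2.3.3, numpy 2.4.6, scipy 1.17.1, matplotlib 3.10.9) made tables and plots. A floor of 3 counts covers counting error only, as PCR copies are not independent molecules. No pair of the 39 pairs of mice at 1 time agreed within sampling noise (chi-square per degree of freedom 9.83 to 94.7).

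In simulated data (13508 to 13635 genes), 200 genes with higher counts were changed, all upward. Of these changes edgeR recovered 37% of 2-fold and 93% of 4-fold ones at 24 h, 85% and 99% between date sets, and in the interaction 36% of 4-fold and 97% of 16-fold ones. Genes and lists were chosen with earlier results of these data known. Named genes are the calls over time (at most 12), the 4 lowest p per direction in each contrast and between date sets, the highest and lowest mean TPM of each complex, the paralog sets and 9 example subunits, and others were named after their values were seen. Alternatives were DESeq2 1.42.0 size factors and tests, no count filter, no left-foot mice, date set as covariate, the times compared alone, each mouse left out, and a pseudocount of 0.1. Chosen after seeing the data were edgeR without the legacy option, each date set alone, and leaving out the 5 libraries that stand apart.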

Additional observations from a re-analysis of the deposited data

Results flagged for a closer look

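Among the 6 mice at 7 d, 43 measures (complex means and named genes) were screened for a mouse that stood apart, as its distance to the next mouse divided by the full spread (Dixon's ratio at the 95% level). Chance alone gives about 2.15 such measures (1 in 20), and 3 were found. For Atp5b the lowest mouse, replicate 2 of the earlier set, stood apart (0.644). For Atp5h the highest mouse, replicate 3 of the later set and of the left foot, did (0.626), and for Cox7a2 the highest, replicate 1 of the earlier set (0.681). The time course of 6 subunit genes differed between date sets by the interaction test, and of none without replicate 3 at 24 h.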

How the results depend on the processing

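Of the named log2 fold changes recomputed under every alternative none turned, but other values did. Between date sets, Ndufa2 (-0.04) and Ndufa4 (-0.00), higher with all mice, had the other sign without the 5 libraries that stand apart. At 7 d minus 0 h, where no gene was called, the earlier mice alone had the other sign than all mice for Cox7b (0.23 against -0.31), Ndufs3 (-0.52 against 0.80), Cox5a (0.64 against -0.22), Ndufa4 (-0.49 against 0.40) and Cox6c (-0.37 against 0.39). Of 1763 values of single genes under an alternative, 1696 stayed on their side of the threshold, 33 passed it newly and 34 no longer did. The number of genes changed over the time course, 5, was 20 with DESeq2's test, 3 without the left-foot mice, 8 with date set as a covariate, 2 without the 5 libraries, 2 in July to August mice only (Cox5b and Ndufa4l2 in both) and 18 in November to January mice only. With each mouse left out in turn it was 3 to 11: 3 without replicate 3 at 24 h or at 12 h, and 11 without replicate 1 at 24 h or replicate 1 or 2 at 7 d. At 24 h against 0 h, 1 became 3 with DESeq2's test or the covariate and 2 without the left-foot mice. Each of these was a larger share than that of all genes called in the same fit. The number was 0 with both times fitted alone or without the 5 libraries, and 0 to 4 with a mouse left out. Replicate 3 is the only later mouse at 24 h, so no count is given for the later mice only. At 7 d, 0 (against 2.34% of all genes) became 2 with DESeq2's test (2.63%, against 4.32%). In the later mice only it was 4 of 77 (5.19%, against 2.79%). It was 1 (1.32%) with the covariate (against 3.83%), without the legacy option (against 3.35%) or without the 5 libraries (against 4.85%). With a mouse left out it was 0 to 5. At 3 d it became 1 without the 5 libraries, a slightly larger share than that of all genes. At 21 d it became 1 with the covariate or without the 5 libraries, a smaller share than that of all genes. At 14 d against 24 h, 1 became 2 with DESeq2's test or the covariate, 3 without the left-foot mice, 19 in the later mice only, and 0 with both times alone, without the 5 libraries or in the earlier mice only (0 to 4 with a mouse left out). Between date sets, 32 (42.1%, against 24.1% of all genes) became 26 without the left-foot mice (34.2%, against 19.8%). Without the 5 libraries it was 11 (14.5%, against 11.2%). With a mouse left out it was 20 to 32, and 20 without replicate 2 at 7 d. Time courses that differed between date sets, 6 (7.89%, against 0.883% of all genes), became 17 with DESeq2's test (22.4%, against 5.91%). Without the count filter it was 16 of 81 (19.8%, against 4.09%), and without the left-foot mice 14 (18.4%, against 2.02%). It was 0 without the 5 libraries (against 0.134%) and 0 to 13 with a mouse left out, 0 of them without replicate 3 at 24 h (against 0.0518%). Beyond fewer mice or genes in some fits, the cause was not tested. No paired analysis was possible because the replicate numbers follow accession order and mark no shared animal.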
